A study of Mus musculus with 6 samples.

Results

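The genes that build fatty acids and cholesterol, and the SREBP genes that control them, were examined in RNA captured on day 8 of quiescence from mouse neural progenitor cells given a label for RNA on day 1. The 33 genes were taken by symbol from a fixed list: 11 of fatty acid synthesis and modification, 17 of sterol synthesis and 5 of SREBP control. All 33 were found among the 55416 Ensembl gene IDs of the count table. The cells came from embryonic brain and were kept quiescent, in every group, in medium with N2, B27, 10 ng/ml FGF2 and 20 ng/ml BMP4. In the 3 EU libraries, cells were given 5-ethynyluridine (EU), a uridine analogue that is built into RNA as it is made, at 250 µM on day 1 and RNA was taken 7 days later. The labels do not say whether EU was removed in between. Cells of the 3 PBS libraries were given the vehicle instead. In both groups RNA was put through biotin coupling and streptavidin capture, so an EU library holds labelled RNA plus background and a PBS library holds background alone. No genotype, strain or age of the cells is stated in the labels. Whether the replicates were grown separately is not stated either, and the p-values therefore cover only the spread among these 6 libraries.

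Cells make fatty acids from cytosolic acetyl-CoA, which ATP citrate lyase (Acly) and acetyl-CoA synthetase (Acss2) supply, acetyl-CoA carboxylase (Acaca) activates and fatty acid synthase (Fasn) strings into palmitate. Elongases of the Elovl family lengthen the chain, Scd desaturases place a double bond in saturated chains, and Fads1 and Fads2 desaturate polyunsaturated ones. Cholesterol is built from the same acetyl-CoA through mevalonate, isoprenoid units, squalene and lanosterol, and in the brain it is made locally because lipoprotein cholesterol of the blood does not cross the blood-brain barrier. SREBP transcription factors, encoded by Srebf1 and Srebf2, switch on genes of both pathways. Scap carries them out of the endoplasmic reticulum when sterols are low, and Insig1 and Insig2 hold Scap back when sterols are plentiful.

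The letters around the transcription starts show a sequence feature shared by most of these genes that the list did not use. RefSeq promoters, from 250 bases before to 50 bases after the start on build GRCm38.p6, matched 27 of the 33 genes by symbol; Scd1, Scd2, Fads1, Fdps, Fdft1 and Sqle were not matched. That build is earlier than the GRCm39 build named for the counts, and the coordinates below serve only to place the sequences. The letters CCAAT, searched on both strands, are the core of the box bound by the factor NF-Y, which is known to act with SREBPs at many lipid genes. They occurred in 23 of 27 genes (85.2%), against 42.3% of 17492 protein-coding genes and 37.4% of all 32851 promoters in the table. All 14 sterol synthesis genes with a promoter held them, as did 5 of 8 fatty acid genes and 4 of 5 SREBP control genes. In Acly, counted here, the only CCAAT letters lay after the start, at position 38. The GC box letters GGGCGG occurred in 22 of 27 genes (49.2% of protein-coding genes) and the E-box CACGTG in 6 of 27 (8.9%). A strict sterol response element, TCACNCCAC, was found in 1 gene, Hmgcs1 (1.4% of protein-coding genes). SREBPs also bind looser sites that these letters do not describe.

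Upstream sequences of 5 genes on which the results below turn are shown 5′ to 3′ on the gene's strand, 150 bases ending at the base before the start. Capitals mark matches to the motifs just named, on either strand. Fasn and Srebf1 had a higher CPM in every EU library than in any PBS library. Hmgcs1, Cyp51 and Hsd17b7 of sterol synthesis were highest in EU replicate 2 among the EU libraries. Their ratios to the mean of EU replicates 1 and 3 were 1.29, 2.21 and 2.17, beside a median of 1.40 for sterol genes. The Fasn sequence lies at chr11:120824548-120824697 on the minus strand and that of Srebf1, for the one of its 3 listed starts that has CCAAT letters within this stretch, at chr11:60210472-60210621 on the minus strand. The others lie at chr13:119690201-119690350 on the plus strand, chr5:4104698-4104847 on the minus strand and chr1:169969206-169969355 on the minus strand. In Fasn a CCAAT on each strand overlap in the run CCAATTGG, and in Hmgcs1 the sterol response element letters begin at position -137 from the start.
Fasn: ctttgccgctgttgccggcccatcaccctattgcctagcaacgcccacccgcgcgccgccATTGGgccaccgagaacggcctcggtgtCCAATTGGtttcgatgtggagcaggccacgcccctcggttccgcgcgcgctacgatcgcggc
Srebf1: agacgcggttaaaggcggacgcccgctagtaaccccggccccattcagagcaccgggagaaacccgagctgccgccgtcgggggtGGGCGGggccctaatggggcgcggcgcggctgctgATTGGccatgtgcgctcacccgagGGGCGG
Hmgcs1: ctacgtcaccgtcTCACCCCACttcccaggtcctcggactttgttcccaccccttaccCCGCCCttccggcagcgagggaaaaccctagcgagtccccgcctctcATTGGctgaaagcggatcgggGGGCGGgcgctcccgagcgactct
Cyp51: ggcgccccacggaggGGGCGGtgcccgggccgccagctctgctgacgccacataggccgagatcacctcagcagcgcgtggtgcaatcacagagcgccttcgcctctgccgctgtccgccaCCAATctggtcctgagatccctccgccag
Hsd17b7: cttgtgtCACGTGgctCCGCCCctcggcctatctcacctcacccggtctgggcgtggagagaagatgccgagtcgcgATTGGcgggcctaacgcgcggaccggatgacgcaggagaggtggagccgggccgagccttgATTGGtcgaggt

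Depth differed strongly between the pulldowns and limits what the low genes can show. Totals were 9564856 to 26479031 counts in EU libraries and 413181 to 729649 in PBS libraries, of which the 33 genes held 93352 to 283812 and 4257 to 5972. Every gene of the lists had at least 10 counts in each EU library, while 23 to 26 had so in the PBS libraries. Values are in CPM, counts scaled to a common library size with TMM factors, which correct for library composition. Such scaling removes the total yield of a pulldown, so equal CPM means an equal share of a library, not an equal amount of RNA. On that scale 3 counts equal 0.106 to 0.380 CPM in EU libraries and 3.86 to 6.38 CPM in PBS libraries (counting error only). Neural progenitor and radial glia markers had counts in all libraries for 7 of 7 genes and summed to 4274 to 5661 CPM in EU and 4996 to 5488 CPM in PBS. Markers of the oligodendrocyte lineage, a cell type rich in lipid synthesis, summed to 16.6 to 26.2 CPM in EU and 10.6 to 68.4 CPM in PBS, with Mog and Mag at 0 in all libraries but EU replicate 1. Of the 5 microglia markers, 4 were at 0 throughout. Neuron markers summed to 27.1 to 77.6 CPM in EU and 23.2 to 246 CPM in PBS, and vascular and fibroblast markers to at most 2.68 CPM in EU and 3.18 CPM in PBS. In such bulk RNA, fewer cells of a type and less RNA per cell cannot be told apart.

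**Figure D1:**
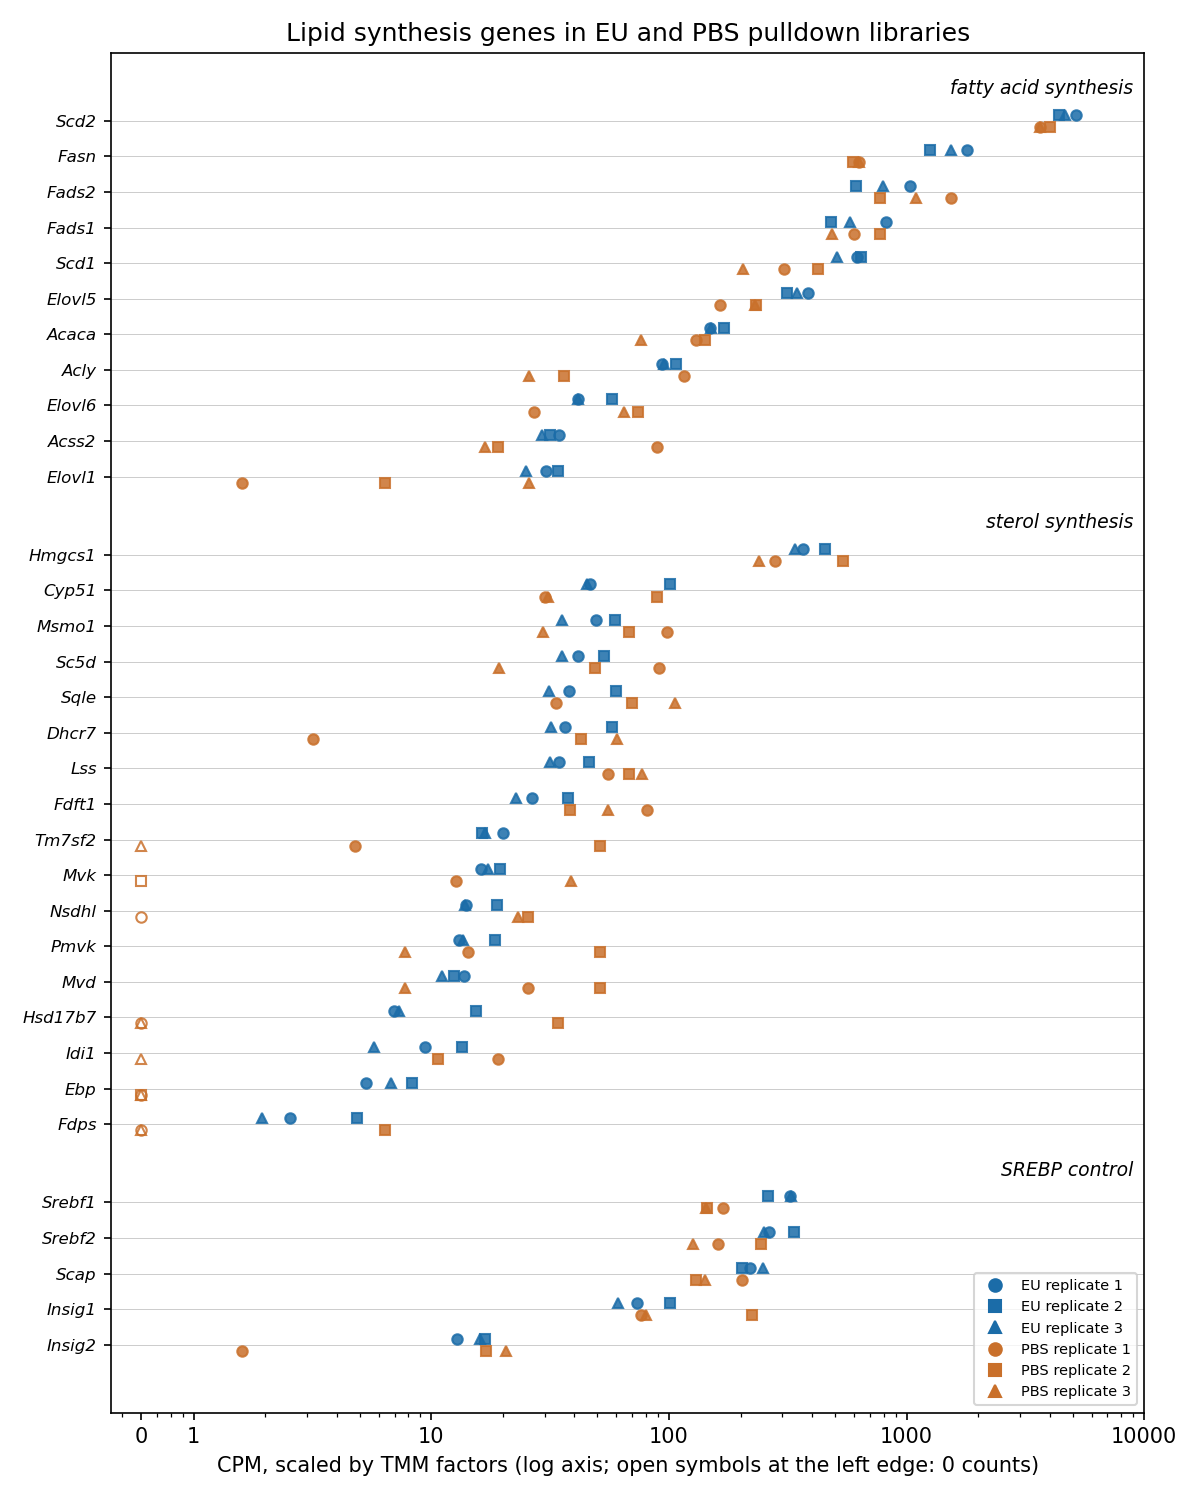
CPM of each gene (log axis) in the 3 EU libraries (blue) and the 3 PBS libraries (orange), by list and ordered by the EU mean. Fasn, Scd1 and Srebf1 in EU lie to the right of all PBS libraries, PBS values of low sterol genes spread widely, and open symbols mark libraries with 0 counts.

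With the difference tested over all 12477 genes that passed the low-count filter, 0 of the 33 lipid genes were called higher and 0 lower in EU (edgeR quasi-likelihood test, two-sided, Benjamini-Hochberg adjusted p below 0.05). The background was equally low, at 0% of all tested genes called higher and 0.024% called lower. At an unadjusted p below 0.05, 6 of the lipid genes were higher (12.6% of all genes) and 0 lower (4.03%). DESeq2 called Fasn and Srebf1 higher and Lss lower, where it called 4.22% of all genes higher and 3.65% lower. Limma-voom called Ebp alone, higher (1.78% of all genes higher and 0.2% lower). Ebp had no PBS count and entered the test through its EU counts alone, so this call is no support. Ebp is also counted among the 6 genes at an unadjusted p below 0.05 and the 9 separated genes that follow. Groups did not overlap for 9 genes with higher EU libraries (27.3% of the 33) and 2 with lower ones (6.06%), beside 21.8% and 6.4% of all tested genes, so neither share lay far from the background. All 33 passed the filter, but 9 of them, 7 of sterol synthesis with Elovl1 and Insig2, did not reach its CPM cut in every PBS library and would not have passed on PBS values. Of all tested genes, 7205 of 12477 reached that cut in every PBS library, beside 24 of the 33.

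The lists differed in where their members lay. Fatty acid genes had 8 of 11 log2 folds above 0 with a median of 0.44, and SREBP control genes 4 of 5 with a median of 0.50. Sterol genes had 6 of 17 above 0 and a median of -0.052. The median of all tested genes was 0.15. The sterol median was 0.092 without the low-count filter (all genes 1.23). Without PBS replicate 2 it was 0.43 (all genes 0.31). Without PBS replicate 3 it was -0.55 (all genes 0.36). Without EU replicate 2 it was -0.52 (all genes -0.026), where the low-count filter, redone, kept 29 of the 33 genes. The difference between the lists was not tested.

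**Figure D2:**
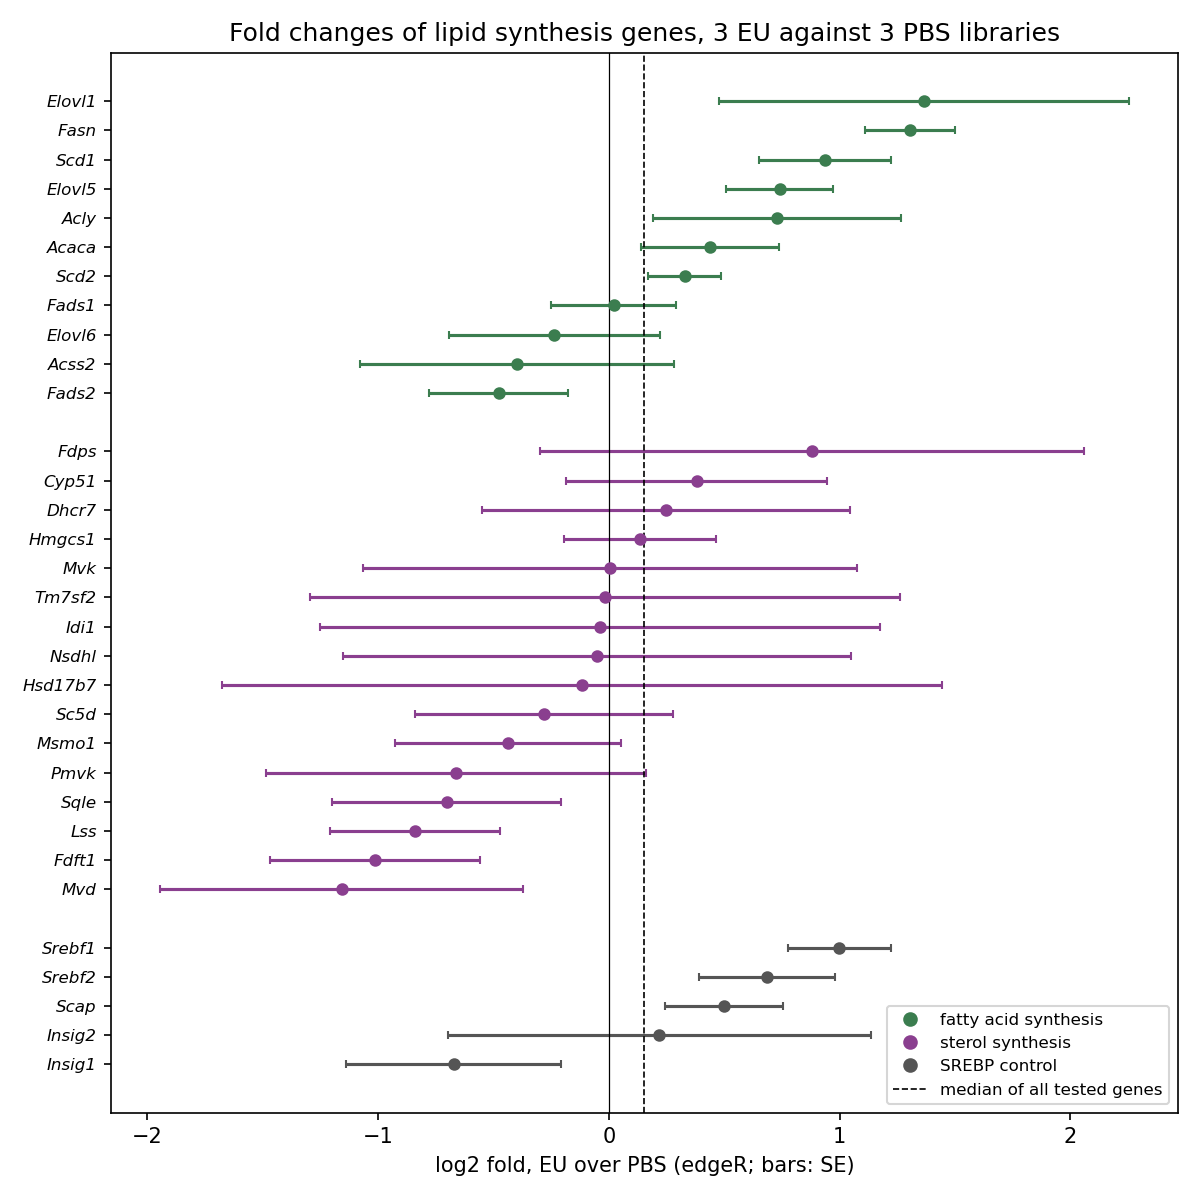
Log2 fold of each gene, EU over PBS, with its SE from edgeR (3 libraries a group), by list; the dashed line is the median of all 12477 tested genes at 0.15. Fasn, Acly, Scd1, Scd2, Elovl1, Elovl5 and the first 3 SREBP control genes lie right of the line by more than their SE. Fads2, Mvd, Fdft1, Sqle, Lss, Msmo1 and Insig1 lie left of it by more than their SE. Sterol genes lie on both sides with wide bars, and Ebp, with no PBS count, is not drawn.

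Among the fatty acid genes Fasn differed most in CPM between EU and PBS, relative to its spread. It measured 1794, 1260.1 and 1531 CPM in EU replicates 1 to 3, against 629.5, 593 and 632 CPM in PBS replicates 1 to 3. The lowest EU library lay above the highest PBS library and the means were 2.47-fold apart, and the log2 fold was 1.31 ± 0.20 (SE; edgeR adjusted p = 0.0979; DESeq2 adjusted p = 3.9e-07). These values rest on 14181, 35722 and 33152 counts in EU and 396, 279 and 491 counts in PBS, and none of its 50-base words occurs in a transcript of another gene in GENCODE M21.

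Enzymes that feed Fasn differed less in CPM between EU and PBS. Acaca, which makes its malonyl-CoA substrate, measured 149, 171 and 149.7 CPM in EU replicates 1 to 3, against 130.4, 142 and 75.97 CPM in PBS replicates 1 to 3 (log2 fold 0.44 ± 0.30 SE, edgeR adjusted p = 0.561). The groups were separated by a small gap, and 30.4% of its 50-base words also occur in other genes, 29.2% in the gene model Gm5182. Acly measured 93.1, 107 and 94.9 CPM in EU and 116, 36.1 and 25.8 CPM in PBS. Acss2 measured 34.3, 31.5 and 29.2 CPM in EU and 89.02, 19.1 and 16.7 CPM in PBS. For both, PBS replicate 1 lay above every EU library and the other PBS libraries below, so the groups overlapped (edgeR adjusted p = 0.595 and 0.857).

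The stearoyl-CoA desaturases make monounsaturated fatty acids, and Scd2 is the form typical of mouse brain. Scd2 was the most abundant gene of all 3 lists, at 5173, 4383 and 4625 CPM in EU replicates 1 to 3, against 3637, 4027 and 3634 CPM in PBS replicates 1 to 3. The EU libraries were higher in all cases but by little, the log2 fold being 0.33 ± 0.16 (SE) at edgeR adjusted p = 0.357. Scd1 measured 620.4, 644 and 512 CPM in EU replicates 1 to 3, against 304, 423 and 205 CPM in PBS replicates 1 to 3, also without overlap (log2 fold 0.94 ± 0.29 SE, edgeR adjusted p = 0.132). The ratio of Scd2 to Scd1 CPM was 8.34, 6.81 and 9.04 in EU replicates 1 to 3, and 11.98, 9.52 and 17.7 in PBS replicates 1 to 3. The 2 genes share 4.56% (Scd1) and 3.97% (Scd2) of their 50-base words with other genes, mostly of the Scd family. Scd2 alone took 50.8% to 54.1% of the summed CPM of the fatty acid genes in EU and 50.2% to 56.8% in PBS.

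Of the elongases and front-end desaturases in the fatty acid list, Elovl5 alone had separated groups. Elovl5, which lengthens polyunsaturated chains, measured 386, 313 and 345 CPM in EU replicates 1 to 3, against 164, 232 and 229 CPM in PBS replicates 1 to 3 (log2 fold 0.74 ± 0.23 SE, edgeR adjusted p = 0.138). Elovl1, an elongase of very long saturated and monounsaturated chains, had steady EU values of 30.5, 34.1 and 25.1 CPM but PBS values of 1.59, 6.38 and 25.8 CPM, from 1, 3 and 20 counts. Elovl6, which elongates palmitate, measured 41.4, 57.5 and 41.3 CPM in EU and 27.02, 74.4 and 64.4 CPM in PBS, where PBS spanned the EU range. Fads1, the delta-5 desaturase, measured 821, 480.3 and 579 CPM in EU and 602, 769.7 and 484 CPM in PBS. Fads2, the delta-6 desaturase, measured 1038, 613 and 797 CPM in EU and 1544, 772 and 1091 CPM in PBS, with PBS replicate 1 the highest library. Neither passed the test, with edgeR adjusted p = 0.984 and 0.526 and log2 folds of 0.020 ± 0.27 and -0.48 ± 0.30 (SE).

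Sterol synthesis genes were far lower than the leading fatty acid genes, and Hmgcs1 made up much of their sum. HMG-CoA synthase (Hmgcs1), an early enzyme on the way to mevalonate, measured 365, 454 and 339.5 CPM in EU replicates 1 to 3, against 278, 542 and 239.5 CPM in PBS replicates 1 to 3. The groups overlapped, at a fold, on the log2 scale, of 0.13 ± 0.33 (SE, edgeR adjusted p = 0.907), and replicate 2 was the highest library in each group. Of its 50-base words 11.6% occur in other genes. Summed over the 17 genes, sterol synthesis held 739, 997 and 667 CPM in EU replicates 1 to 3, against 747, 1197 and 695 CPM in PBS replicates 1 to 3. The sums overlapped between the groups, and Hmgcs1 took 45.6% to 50.9% of them in EU and 34.4% to 45.3% in PBS.

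The enzymes that turn mevalonate into farnesyl pyrophosphate were close to the limit of the PBS libraries. Mevalonate kinase (Mvk), phosphomevalonate kinase (Pmvk), mevalonate pyrophosphate decarboxylase (Mvd), isopentenyl isomerase (Idi1) and farnesyl pyrophosphate synthase (Fdps) had EU means of 3.11 to 17.7 CPM and 0 to 30 counts in a PBS library. For example, Mvd measured 13.7, 12.5 and 11.04 CPM in EU and 25.4, 51.03 and 7.73 CPM in PBS, -1.16 ± 0.79 (SE) on the log2 scale with edgeR adjusted p = 0.563. Fdps was the lowest gene of the lists in EU, at 2.53, 4.87 and 1.94 CPM. Its 3 PBS counts all lay in PBS replicate 2, and the ratio of the pooled rates, EU over PBS, was 2.16 (exact 95% interval 0.729 to 10.6, counting error only). Words of 50 bases shared with other genes made up 26.2% for Fdps and 25.3% for Idi1, so their values are uncertain.

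Of the enzymes from squalene to lanosterol, none passed the edgeR test. Lanosterol synthase (Lss) measured 34.4, 46.2 and 31.7 CPM in EU replicates 1 to 3, against 55.6, 68.04 and 77.3 CPM in PBS replicates 1 to 3. Every EU library lay below every PBS library, and the log2 fold was -0.84 ± 0.37 (SE; edgeR adjusted p = 0.304; DESeq2 adjusted p = 0.045). Squalene synthase (Fdft1) measured 26.4, 37.7 and 22.7 CPM in EU replicates 1 to 3, against 81.1, 38.3 and 55.4 CPM in PBS replicates 1 to 3, where the highest EU and the lowest PBS value almost touched (log2 fold -1.01 ± 0.45 SE, edgeR adjusted p = 0.318). Fdft1 shares 26.5% of its 50-base words with other genes, 17.2% with Ctsb. Squalene epoxidase (Sqle) measured 37.96, 59.8 and 31.2 CPM in EU and 33.4, 70.2 and 106 CPM in PBS and overlapped.

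Of the enzymes that convert lanosterol to cholesterol, none was separated between the groups except Ebp, the sterol isomerase. Ebp measured 5.31, 8.25 and 6.79 CPM in EU and had no count in any PBS library, at least 4.24-fold higher in EU when set against a floor of 3 counts over the PBS group (1.60 CPM; edgeR adjusted p = 0.103; limma-voom adjusted p = 0.0351). It entered the test through its EU counts alone and so had to differ, and its p is no support. Cyp51, the lanosterol demethylase, measured 46.4, 101 and 45.04 CPM in EU replicates 1 to 3, against 30.2, 89.3 and 30.9 CPM in PBS replicates 1 to 3. In both groups replicate 2 stood above the other libraries, while the EU and PBS ranges overlapped (edgeR adjusted p = 0.827). Msmo1, Nsdhl and Hsd17b7 together remove the methyl groups at one carbon of the sterol ring. Msmo1 measured 49.5, 59.5 and 35.3 CPM in EU and 98.6, 68.04 and 29.6 CPM in PBS. Nsdhl measured 14.05, 18.8 and 13.8 CPM in EU and 0, 25.5 and 23.2 CPM in PBS. Hsd17b7 measured 6.96, 15.5 and 7.30 CPM in EU and 0, 34.02 and 0 CPM in PBS, all of its PBS counts lying in PBS replicate 2. In each of the 3 the PBS values lay on both sides of the EU values. Dhcr7, the last enzyme of one branch, measured 36.6, 57.8 and 32.01 CPM in EU and 3.18, 42.5 and 60.5 CPM in PBS. Sc5d, a sterol desaturase, measured 41.3, 53.3 and 35.4 CPM in EU and 90.6, 48.9 and 19.3 CPM in PBS. Tm7sf2, a sterol reductase, measured 19.99, 16.3 and 16.8 CPM in EU and 4.77, 51.03 and 0 CPM in PBS. In all 3 the PBS libraries differed from each other by more than the group means did, so no difference was detectable at this depth for these late enzymes.

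The SREBP control genes included 3 with separated groups. Srebf1, whose SREBP-1 products favour fatty acid genes, measured 324, 260.2 and 327 CPM in EU replicates 1 to 3, against 169, 145 and 143 CPM in PBS replicates 1 to 3. All EU libraries lay above all PBS libraries, the means were 1.998-fold apart and the log2 fold was 0.998 ± 0.22 (SE; edgeR adjusted p = 0.103; DESeq2 adjusted p = 9.7e-04). Srebf2, whose product favours sterol genes, measured 263, 337 and 251 CPM in EU replicates 1 to 3, against 161, 245 and 126 CPM in PBS replicates 1 to 3, separated by a narrow gap (log2 fold 0.69 ± 0.29 SE, edgeR adjusted p = 0.294). Scap measured 220.05, 204 and 249 CPM in EU replicates 1 to 3, against 203, 129.7 and 142 CPM in PBS replicates 1 to 3, where the lowest EU and highest PBS library were nearly equal (edgeR adjusted p = 0.396). Insig1, itself a target of SREBPs, measured 73.01, 101 and 61.3 CPM in EU replicates 1 to 3, against 76.3, 223 and 79.8 CPM in PBS replicates 1 to 3. Here PBS replicate 2 was far above all other libraries and the groups overlapped, at -0.67 ± 0.47 (SE) on the log2 scale and edgeR adjusted p = 0.571. Insig2 measured 12.8, 16.9 and 15.98 CPM in EU and 1.59, 17.01 and 20.6 CPM in PBS and overlapped. Summed over the 5 genes, SREBP control held 893, 919 and 905 CPM in EU replicates 1 to 3, against 610.4, 759 and 511 CPM in PBS replicates 1 to 3, without overlap.

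Levels between genes were compared per kb of exon, using exon lengths of GENCODE M21. Scd2 stood at 865 ± 74.04 CPM per kb in EU and 689 ± 41.4 in PBS (SD, n = 3 each), followed by Fads2 at 248 ± 64.6 CPM per kb in EU and 345 ± 118 in PBS. Fasn at 139.6 ± 24.4, Fads1 at 130.3 ± 36.5 and Scd1 at 121 ± 14.5 CPM per kb came next in EU and lay within each other's spread. In PBS, Fads1 at 129 ± 29.8 lay above Scd1 at 63.5 ± 22.4 and Fasn at 56.5 ± 1.99 CPM per kb. Hmgcs1 led the sterol genes at 84.1 ± 13.1 CPM per kb in EU and 76.9 ± 35.9 in PBS, with Cyp51 next in EU at 14.5 ± 7.23 CPM per kb. The SREBP control genes ran in EU from Srebf1 at 53.9 to Insig2 at 4.38 CPM per kb, with Srebf2 at 39.5 and Scap at 30.1 between them. In PBS, Insig1 at 40.9 ± 27.1 CPM per kb, raised by PBS replicate 2, and Srebf1 at 26.98 ± 2.54 CPM per kb did not differ beyond their spread.

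Most sterol genes were highest in the same EU library. Among the EU libraries, replicate 2 was the highest for 15 of 17 sterol genes (88.2%), against 5 of 11 fatty acid genes and 43.7% of all tested genes. Its median ratio to the mean of the other two EU libraries was 1.40 for sterol genes, 0.991 for fatty acid genes and 1.02 for all tested genes. The ratio was largest for Cyp51 (2.21), Fdps (2.18) and Hsd17b7 (2.17). In contrast it was 0.669 for Fads2, 0.686 for Fads1 and 0.758 for Fasn. Srebf2 and Insig1 had ratios of 1.31 and 1.51, and Srebf1 0.799. These ratios describe single libraries and were not tested. Over the 3 libraries of a group, the median coefficient of variation of sterol genes was 21.7% in EU and 80.2% in PBS, and that of fatty acid genes 11.9% in EU and 34.2% in PBS. All tested genes stood at 14.7% in EU and 77.7% in PBS.

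**Figure D3:**
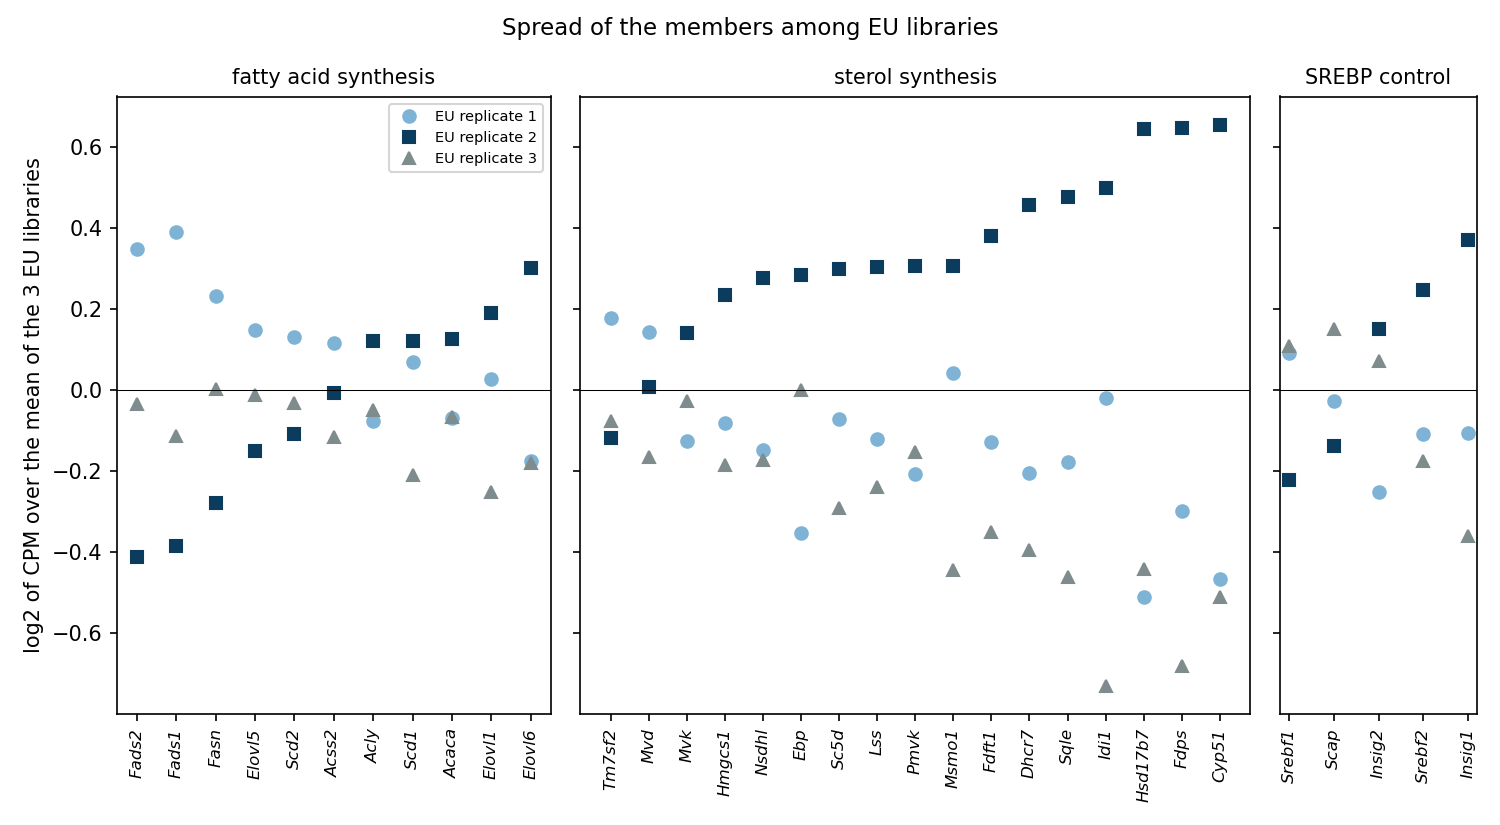
Log2 of each EU library's CPM over the mean of the 3 EU libraries, by gene and list, ordered by the ratio of EU replicate 2 to the other two. EU replicate 2 (dark squares) is the top point for 15 of 17 sterol genes. It is the bottom point for 8 of the 33 genes, among them Fads2, Fads1, Fasn, Srebf1 and the sterol gene Tm7sf2.

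The balance between the lists also differed between libraries of a group. The sterol sum, as a share of the fatty acid sum, was 7.26%, 12.3% and 7.64% in EU replicates 1 to 3, and 10.3%, 16.9% and 10.7% in PBS replicates 1 to 3. The ratio of Srebf2 to Srebf1 CPM was 0.813, 1.29 and 0.767 in EU replicates 1 to 3, and 0.953, 1.69 and 0.883 in PBS replicates 1 to 3. Both ratios were highest in replicate 2 of each group. PBS replicate 2 was the highest PBS library for 8 of the 16 sterol genes with a PBS count and for 6 of 11 fatty acid genes, beside 31.5% of tested genes with a PBS count. The proliferation gene Mki67 moved the same way, at 96.7, 438 and 95.6 CPM in EU replicates 1 to 3 and 25.4, 93.6 and 32.2 CPM in PBS replicates 1 to 3. Top2a measured 72.1, 317 and 78.99 CPM in EU and 39.7, 82.9 and 74.7 CPM in PBS. Ccnb1 measured 14.2, 43.95 and 17.2 CPM in EU and 4.77, 0 and 10.3 CPM in PBS. For Ccnb1, replicate 2 was thus the lowest PBS library. The part of proliferation in the sterol values was not tested. The labels do not say what libraries with the same number share.

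**Figure D4:**
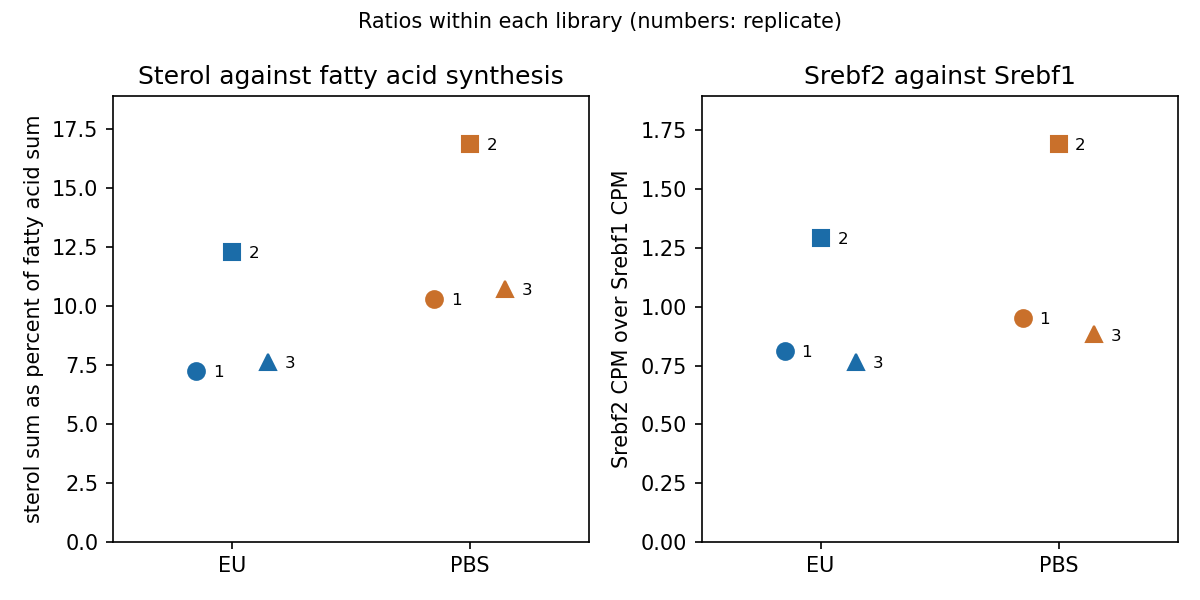
Left, the summed CPM of the 17 sterol genes as a percent of that of the 11 fatty acid genes in each library; right, Srebf2 CPM over Srebf1 CPM; EU libraries in blue left of PBS libraries in orange, with replicate numbers. Replicate 2 is the highest point of each group in both panels.

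Summed levels showed how much of the captured RNA these pathways made up. Fatty acid genes summed to 10181, 8095 and 8728 CPM in EU replicates 1 to 3, against 7244, 7095 and 6483 CPM in PBS replicates 1 to 3, so the groups did not overlap; without Scd2 the sums averaged 4275 ± 665 CPM in EU, against 3175 ± 389.9 CPM in PBS (both SD of 3). The mean sums stood in a ratio, EU over PBS, of 1.30 for fatty acid synthesis, 1.44 for SREBP control and 0.910 for sterol synthesis. On the log2 scale the sterol ratio was -0.14, but 0.21 without PBS replicate 2 and 0.0093 without the low-count filter, so its direction is not settled. All 33 genes together took 0.998% ± 0.0651 of the counts of an EU library and 0.895% ± 0.118 of a PBS library, before TMM scaling.

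A further 30 genes of the same pathways were read from the same fit. Of these 24 were tested and none was called in either direction by edgeR (5 higher, with Acacb and Abcg1 counted, and 0 lower at an unadjusted p below 0.05), with 15 log2 folds above 0, 9 below and a median of 0.35; DESeq2 called 2 higher, Me1 among them, and 0 lower. The other 6 were too low to be tested. Me1 was among the 4 with the smallest p. Malic enzyme (Me1), a source of NADPH for lipid synthesis, measured 167, 123 and 162 CPM in EU replicates 1 to 3, against 49.3, 91.4 and 59.2 CPM in PBS replicates 1 to 3 (log2 fold 1.19 ± 0.32 SE, edgeR adjusted p = 0.103). Its groups were separated. Acacb and the sterol exporter Abcg1, also among the 4, entered the test through their EU counts alone and so had to differ, and their p is no support. They had no PBS count and EU means of 2.86 and 3.99 CPM, at least 1.79-fold and 2.50-fold higher in EU when the PBS group is given 3 counts in all.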

How the data were processed

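RNA was measured in 3 EU and 3 PBS pulldown libraries; the authors deposited their counts per Ensembl gene ID unnormalized. Listed without roles, per the submitters' processing notes, are GRCm39, featureCounts 2.0.1, STAR 2.7.10b, UMI-tools 1.1.2 and bcl2fastq 2.20.0. How strand and multi-mapping reads were handled is not given in the sources used here, which leaves overlapping and near-identical genes uncertain. No column was left out, and every row names a gene. Symbols were matched to 52083 of 55416 IDs. Exon lengths and transcripts came from GENCODE M21. Counts of replicates differed by far more than sampling noise.

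Counts were fitted with edgeR 4.0.16 (robust quasi-likelihood, TMM, filterByExpr, group as the only term) in R 4.3.3, with p-values adjusted over all 12477 tested genes; DESeq2 1.42.0 and limma 3.58.1 voom were alternatives. SE is the log2 fold over the root of F. Intervals are exact binomial and cover counting error only. The edgeR, DESeq2 and limma-voom fits with group as the only term were tested on simulated data. The other settings were not. The members and lists were chosen with earlier results of these data known. All members are named; of the 30 other genes, those called and the 4 with the smallest p, except items not reported here. Alternatives were scaling, low-count filter, tool, replicate number as a block and each library left out.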

Additional observations from a re-analysis of the deposited data

How the results depend on the processing

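The main fit called 0 genes higher and 3 lower over all genes, and none of the lipid genes. With library size alone the counts were 3 and 34, without a low-count filter 82 and 262, with DESeq2 506 and 438, and with limma-voom 222 and 25. Lipid genes called higher numbered 1 with library size alone and 1 without a filter (Fasn in each case), 2 with DESeq2 (and 1 lower) and 1 with limma-voom (Ebp, which had no PBS count). Leaving out each library called no lipid gene and 0 to 10 genes lower; the count was 0 without any PBS library and 10 without EU replicate 1. The cause was not tested. Library size alone moved the log2 ratio of the fatty acid sums to 0.18, from 0.38 with TMM, and shifted the median of all genes by -0.17; the other medians and sums of the lists moved by less than the spread between replicates, although the sterol median and sum changed sign in the settings given with those values, and the median also with at least 10 counts in 2 libraries (0.010).

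Adding the replicate block to the edgeR fit called 144 genes higher and 50 lower, with 2 lipid genes, Fasn (adjusted p = 3.5e-07) and Scd1 (adjusted p = 0.0119), among the higher. Whether equal numbers are pairs is not in the labels. Deviations of same-numbered libraries correlated at 0.0389 to 0.095 over all tested genes, and at 0.108 to 0.178 over 3424 genes with a mean of at least 50 CPM; each library correlated best with its own number, a hint from the data and not the design.

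Single genes changed the sign of their log2 fold only while uncalled. They were Fads1 -0.081, Mvk -0.094 with DESeq2 size factors; Fads1 -0.20, Hmgcs1 -0.052, Mvk -0.14 with library size alone; Tm7sf2 0.017 with upper-quartile factors; Idi1 0.11, Tm7sf2 0.13, Nsdhl 0.092, Hsd17b7 0.038 without a filter; Idi1 0.024, Tm7sf2 0.045, Nsdhl 0.010 with at least 10 counts in 2 libraries; Fads1 -0.080, Mvk -0.082 with DESeq2; Acss2 0.016, Fads1 -0.027, Idi1 0.12, Tm7sf2 0.29, Nsdhl 0.73, Hsd17b7 1.99, Sc5d 0.0040 with limma-voom; and Acss2 0.027, Idi1 0.70, Tm7sf2 1.54, Nsdhl 0.55, Hsd17b7 2.31 with the block. When a library was left out the log2 folds that changed sign ran from -0.74 to 0.89 (Acss2), -0.50 to 0.080 (Elovl6), -0.27 to 0.26 (Fads1), -0.056 to 0.64 (Hmgcs1), -0.49 to 1.42 (Mvk), -1.03 to 0.53 (Pmvk), -0.60 to 1.14 (Idi1), -0.17 to 1.13 (Cyp51), -0.55 to 3.05 (Tm7sf2), -0.74 to 0.075 (Msmo1), -0.57 to 0.44 (Nsdhl), -0.64 to 9.88 (Hsd17b7), -0.64 to 0.45 (Sc5d), -0.23 to 1.01 (Dhcr7), -0.96 to 0.070 (Insig1), -0.25 to 0.86 (Insig2). In all, 53 of 454 such values changed sign, 8 passed the threshold and 393 did neither. Depth limits the sterol genes most: several had fewer than 10 counts in a PBS library, and the SE of log2 folds ran up to 1.56 (Hsd17b7) among those with a PBS count, with 2.16 for Ebp, which had none.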
